A study of Mus musculus with 6 samples.

Results

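The 7SK RNA (gene Rn7sk) and 6 genes for proteins that work with it were followed in whole mouse brain with and without TRMT1L. The genes are Larp7, Mepce, Hexim1, Cdk9, Ccnt1 and Ccnt2, and with Rn7sk they make 7 of the 55450 genes in each count table, found by their symbols in GENCODE M21. Rn7sk was chosen by its measured CPM (counts scaled to library totals), higher in the KO libraries of this same data set, so its own KO and WT values are given as a description without a test. The 6 protein genes were chosen for their known roles, and were compared to ask whether they follow the rise of Rn7sk.

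RNA of total brain was sequenced in 3 libraries labelled TRMT1L KO and 3 labelled WT, called biological triplicates in the series' design text. Nothing states that each came from a separate animal, and p-values measure the spread between these libraries. TRMT1L is a relative of the tRNA methyltransferase TRMT1, and the sources used here give no allele, strain, sex or age. RNA over 200 bp was selected and made into total RNA libraries, a preparation that does not require a poly(A) tail, which 7SK lacks. Whole brain mixes all its cell types, so fewer cells of a type and less RNA per cell cannot be told apart in any value below.

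7SK is a short nuclear RNA made by RNA polymerase III. The enzyme MEPCE caps its 5′ end and LARP7 binds the run of U at its 3′ end, which together keep the RNA stable. HEXIM1 binds its 5′ hairpin, where GAUC repeats lie, and then holds and inhibits P-TEFb, the kinase CDK9 with cyclin T1 (Ccnt1) or cyclin T2 (Ccnt2). Released P-TEFb phosphorylates RNA polymerase II and its pausing factors, which frees paused polymerase into elongation. In humans, loss of LARP7 causes Alazami syndrome, which includes intellectual disability.

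The sequence of 7SK is shown because it sets what the counts can see. Rn7sk (ENSMUSG00000065037.1) is a gene without introns on the minus strand of GRCm38, at chr9:78175303-78175633, and it overlaps no other annotated gene. The RNA is 331 bases long with a GC content of 58.0% and ends in 3 T. It is written below as DNA from GENCODE M21, in 2 stretches. In bases 1 to 241 capitals mark the motif GATC, which reads the same on both strands, and in bases 242 to 331 capitals mark the final run of T, where LARP7 binds. Gm24447, an annotated copy of 338 bases on the plus strand at chr15:93234363-93234700, is identical to 7SK over bases 1 to 241, and its bases 242 to 338 are shown to set the unlike ends side by side.
Rn7sk bases 1 to 241: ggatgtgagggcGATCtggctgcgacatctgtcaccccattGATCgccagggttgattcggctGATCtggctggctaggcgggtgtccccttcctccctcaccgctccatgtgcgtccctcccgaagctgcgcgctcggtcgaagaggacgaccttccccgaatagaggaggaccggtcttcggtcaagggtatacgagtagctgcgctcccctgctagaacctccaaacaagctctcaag
Rn7sk bases 242 to 331: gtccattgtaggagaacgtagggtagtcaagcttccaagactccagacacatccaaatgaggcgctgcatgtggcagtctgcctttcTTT
Gm24447 bases 242 to 338: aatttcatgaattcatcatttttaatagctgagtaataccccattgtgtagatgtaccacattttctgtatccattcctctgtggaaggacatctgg

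GATC occurs 3 times in 7SK, at bases 13 to 16, 42 to 45 and 64 to 67. At least 1 GATC stood in 66.4% of the 4689 GENCODE transcripts of 300 to 360 bases, and at least 3 stood in 9.1%. All 3 motifs lie in the stretch shared with Gm24447. Of 195 annotated short RNAs that resemble 7SK in a blastn search, 5 matched it at 95% identity or more over at least 100 bases, and together they covered bases 1 to 244. A read that maps equally well to several places was left out of the counts. The remaining 87 bases at the 3′ end are therefore the part of 7SK that no such annotated copy shares.

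Few reads were counted in the copies themselves. Counts of Gm24447 ranged from 250 to 428 in the 6 libraries, and those of Gm26035, a copy on chromosome X with 96.1% identity over 229 bases, from 331 to 548. All 195 copies together held between 0.320% and 0.442% of the Rn7sk count of the same library. A read from a stretch that is identical in Rn7sk and a copy is left out of the counts of the copy as well. These counts therefore cannot show how much RNA the copies make.

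The libraries held between 78341827 and 89979690 reads, of which 31201119 to 36145961 were counted in genes on the transcribed strand. The targeted gene Trmt1l was counted 1279, 1034 and 1158 times in WT and 93, 101 and 106 times in KO, on the side that each label implies. Of 21237 genes with enough counts, 2 differed between KO and WT at an adjusted p-value under 0.05 (edgeR's quasi-likelihood test, Benjamini-Hochberg adjustment), or 0.00942%, and 0 of the 6 protein partners of 7SK were among them. All 7 members passed the filter on low counts. The set of 3 markers checked for each of neurons, astrocytes, microglia, endothelium, choroid plexus and blood was present in every library. Summed CPM of the neuronal markers Snap25, Syt1 and Rbfox3 ran from 2948 to 3105 in WT and from 2816 to 3013 in KO.

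Rn7sk was higher in each KO library than in any WT library. Its abundance was 14251, 12370.3 and 13654 CPM in WT libraries 1 to 3 and 15647, 16559.5 and 15940.5 CPM in KO libraries 1 to 3. The WT mean was 13425 ± 961 CPM and the KO mean 16049 ± 466 CPM (SD, n = 3 each), a difference of 19.5%. The fitted log2 fold change was 0.26. The lowest KO library stood above the highest WT library, and the WT libraries were spread more widely, with a coefficient of variation of 7.16% against 2.90% in KO. Among all genes tested, 5.86% had a log2 fold change at least as high, and the median was 0.00013.

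In each library Rn7sk had the second highest count of all genes. It took up 1.35% ± 0.0967 of gene counts in WT and 1.60% ± 0.0310 in KO (SD, n = 3). The nuclear RNA Malat1, the 1 gene with a higher mean count, had 20765.5 ± 460 CPM in WT and 20121 ± 1181 CPM in KO (log2 fold change -0.05, edgeR adjusted p = 0.814). Reads of Rn7sk came almost wholly from its own strand, between 99.958% and 99.972% in each library.

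Measures of the libraries that moved with the groups are set beside Rn7sk, and their part in its level was not tested. Reads mapping to several places, a class that can take in reads from the shared part of 7SK, took 4.92% ± 0.280 of the mapped reads of WT libraries and 5.48% ± 0.196 of those of KO libraries (n = 3, SD). Reads in no gene took 51.2% ± 0.925 in WT and 49.3% ± 0.601 in KO, and reads in several genes 0.794% ± 0.0123 and 0.882% ± 0.0238. For each of these 3 shares the groups did not overlap. Gm26917, an annotated long intergenic RNA named after its values were seen, had 5924 ± 1080 CPM in WT and 7858 ± 1259 CPM in KO, with overlapping groups (log2 fold change 0.41, edgeR adjusted p = 0.576). C920006O11Rik, the annotated gene nearest to Rn7sk, lies 281 bases away and did not pass the test, with 2.16 ± 0.305 CPM in WT and 2.01 ± 0.381 CPM in KO (log2 fold change -0.10, SE 0.19, edgeR adjusted p = 0.920).

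**Figure D1:**
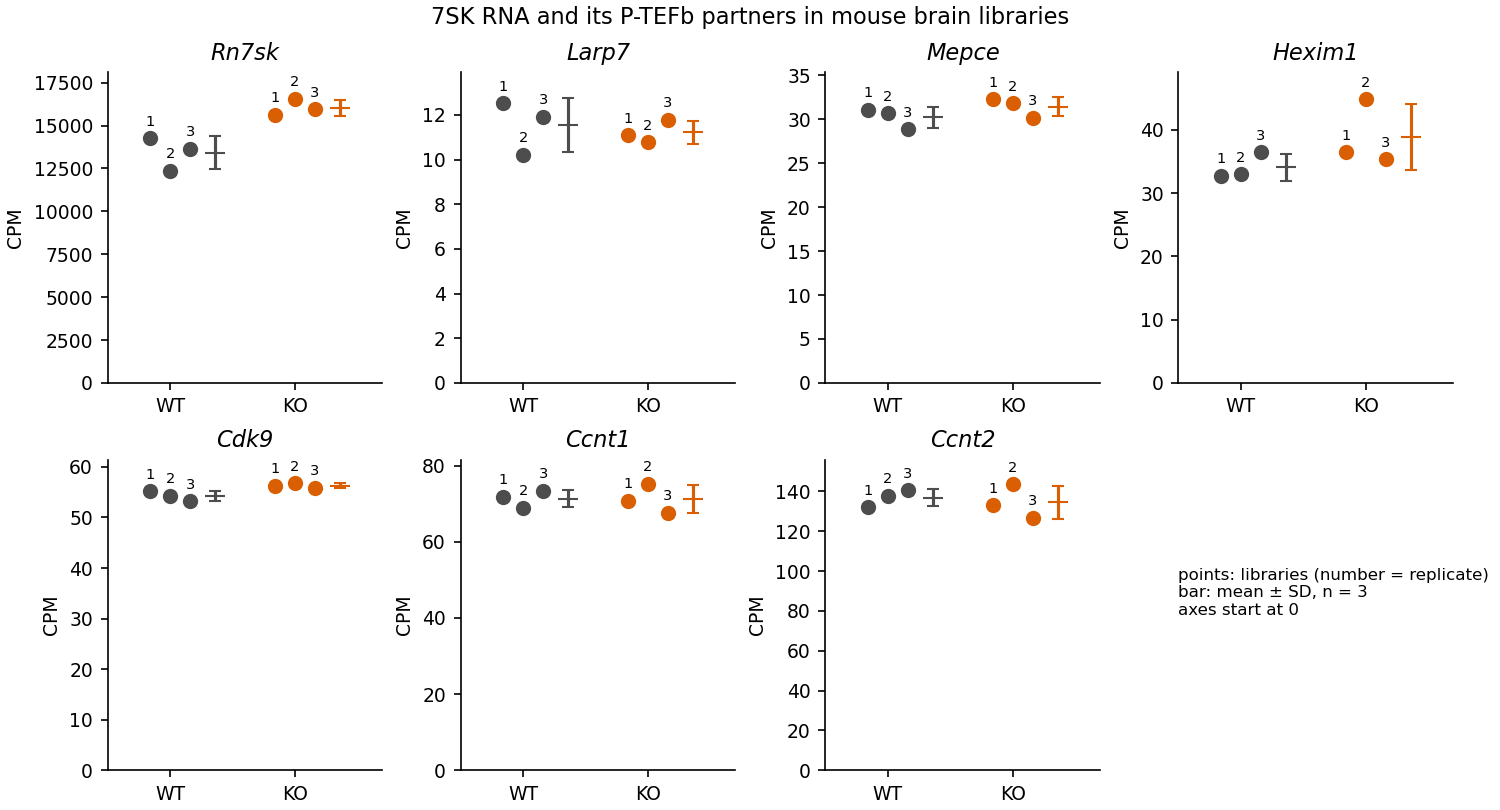
Abundance (CPM, axes from 0) of 7SK and its 6 partner genes in each library, with points numbered by replicate and bars for mean ± SD of 3 libraries. The KO points of Rn7sk and Cdk9 lie above all WT points, and those of the other 5 genes overlap with WT.

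The proteins that hold 7SK itself were examined first. Larp7 (ENSMUSG00000027968.11, chromosome 3, 127536714 to 127553349, minus strand) encodes the protein that binds the 3′ end of 7SK. Its abundance was 12.5, 10.2 and 11.9 CPM in WT libraries 1 to 3 and 11.1, 10.8 and 11.8 CPM in KO libraries 1 to 3. All KO values lay inside the WT range. The log2 fold change was -0.04 (SE 0.095, 95% interval from -0.25 to 0.17, edgeR adjusted p = 0.935).

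Mepce (ENSMUSG00000029726.16, chromosome 5, 137781906 to 137787655, minus strand) encodes the capping enzyme of 7SK. It measured 31.1, 30.7 and 28.9 CPM in the WT libraries and 32.3, 31.8 and 30.2 CPM in the KO libraries. KO library 3 fell below WT libraries 1 and 2, so the groups overlapped. The log2 fold change was 0.06 (SE 0.059, 95% interval from -0.07 to 0.19, edgeR adjusted p = 0.829).

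Hexim1 (ENSMUSG00000048878.6, chromosome 11, 103116231 to 103119725, plus strand) encodes the inhibitor that 7SK brings to P-TEFb. Its abundance was 32.7, 33.0 and 36.4 CPM in WT libraries 1 to 3 and 36.4, 44.8 and 35.4 CPM in KO libraries 1 to 3. KO library 2 stood well above the other 5, while KO libraries 1 and 3 lay near or below WT library 3. The WT mean was 34.0 ± 2.08 CPM and the KO mean 38.9 ± 5.17 CPM (n = 3, SD). The log2 fold change was 0.19 (SE 0.087, 95% interval from 0.00011 to 0.38). Over all genes it did not pass (edgeR adjusted p = 0.628), and unadjusted its p-value was 0.0499.

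Among the 6 partners Hexim1 alone came under 0.05 without adjustment, a level that 7.92% of all genes tested reached (4.54% higher and 3.38% lower in KO). That level was lost in 10 of 15 alternatives. In edgeR's test it was kept without a filter (unadjusted p = 0.0039) and without KO library 1 (0.038), KO library 3 (0.014) or WT library 3 (0.032). The DESeq2 Wald test also kept it (unadjusted p = 0.038). The unadjusted p-value was 0.143 without WT library 1, 0.133 without WT library 2 and between 0.0509 and 0.0621 with other scalings, a stricter filter, limma-voom or the replicate block. The fitted value moved most without KO library 2, where the log2 fold change of Hexim1 was 0.08 (SE 0.066, unadjusted p = 0.272, edgeR adjusted p = 0.821).

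Hexim1 also differed from the other members in its reads from the opposite strand, although no gene is annotated there. These made up 25.9%, 24.3% and 23.3% of its stranded reads in the WT group and 19.6%, 13.2% and 25.5% in the KO group. The same share, pooled over libraries, was at most 3.67% for the other 6 members and had a median of 0.402% over all genes tested, 10.9% of which reached the pooled 21.8% of Hexim1. Opposite-strand counts were 416, 332 and 365 in WT and 309, 229 and 438 in KO. KO library 2 thus had the most reads on the Hexim1 strand and the fewest on the other. The opposite-strand counts did not pass in the same test on that strand (log2 fold change -0.26, edgeR adjusted p = 0.890). When both strands were counted together, the log2 fold change of Hexim1 was 0.10 (SE 0.063, edgeR adjusted p = 0.759).

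**Figure D2:**
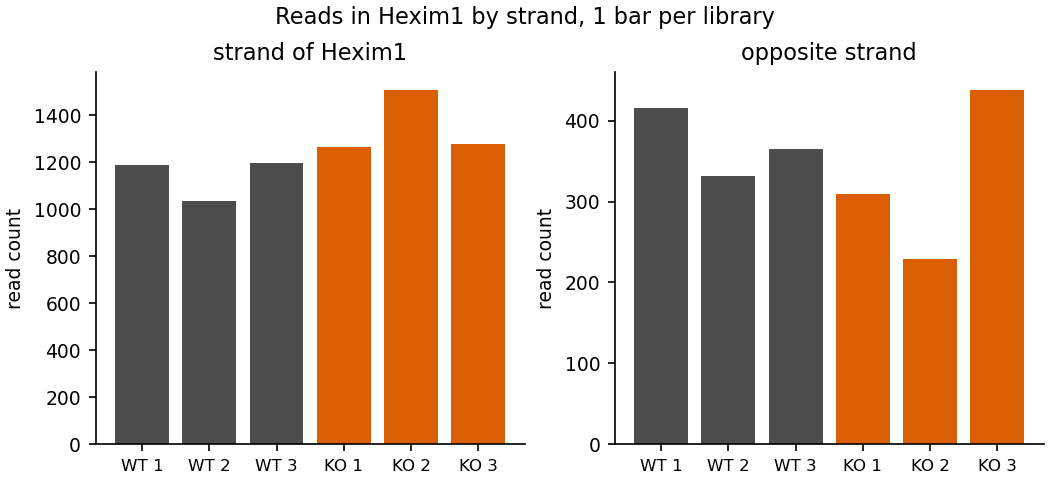
Reads counted in Hexim1 on its own strand (left) and on the opposite strand (right), 1 bar per library, WT in grey and KO in orange. KO library 2 has the highest bar on the left, 1508 reads, and the lowest on the right, 229 reads.

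The kinase P-TEFb was examined next. Cdk9 (ENSMUSG00000009555.16, chromosome 2, 32705784 to 32713076, minus strand), its catalytic subunit, had 55.2, 54.3 and 53.2 CPM in WT libraries 1 to 3 and 56.2, 56.7 and 55.8 CPM in KO libraries 1 to 3. The KO values all exceeded the WT values, by a small margin. The WT mean was 54.2 ± 0.989 CPM and the KO mean 56.3 ± 0.456 CPM (n = 3, SD), a difference of 3.76%. The log2 fold change was 0.05 (SE 0.048, 95% interval from -0.05 to 0.16). Cdk9 did not pass the threshold (edgeR adjusted p = 0.806). Cdk9 was the 1 partner of 6 whose groups did not overlap, and among all genes tested the groups did not overlap for 14.4%, 7.46% higher and 6.97% lower in KO. The exons of Cdk9 overlap those of Mir2861 and Mir3960 on the same strand, where reads in several genes are left out of the counts.

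Cyclin T1 is the cyclin through which P-TEFb is best known, and Ccnt1 (ENSMUSG00000011960.12, chromosome 15, 98538689 to 98570923, minus strand) encodes it. Its abundance was 71.8, 69.0 and 73.4 CPM in WT and 70.8, 75.2 and 67.7 CPM in KO libraries 1 to 3. KO libraries 2 and 3 were the highest and the lowest of all 6. Its fitted log2 fold change was -0.0033 (SE 0.054, 95% interval from -0.12 to 0.11, edgeR adjusted p = 0.992).

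Ccnt2 (ENSMUSG00000026349.14, chromosome 1, 127774164 to 127808061, plus strand) encodes the alternative cyclin and lies 23.6 Mb from Trmt1l on the same chromosome. It measured 132, 138 and 141 CPM in WT and 133, 144 and 127 CPM in KO libraries 1 to 3. As for Ccnt1, KO library 2 was the highest and KO library 3 the lowest of the 6. Its fitted log2 fold change was -0.03 (SE 0.053, 95% interval from -0.14 to 0.09, edgeR adjusted p = 0.932).

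Set beside Rn7sk, the partners spread on both sides of no change. Of the 6, 3 had a higher and 3 a lower fitted level in KO, with a median log2 fold change of 0.02 and a range from -0.04 to 0.19, and 0 passed the threshold over all genes in edgeR's test. The DESeq2 Wald test also called 0 of the 6, and gave no adjusted p-value for 3 of them (Larp7, Mepce and Hexim1). Over all genes tested 50.1% were higher in KO. The difference between Rn7sk and a partner was not tested, since Rn7sk was chosen for its rise.

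**Figure D3:**
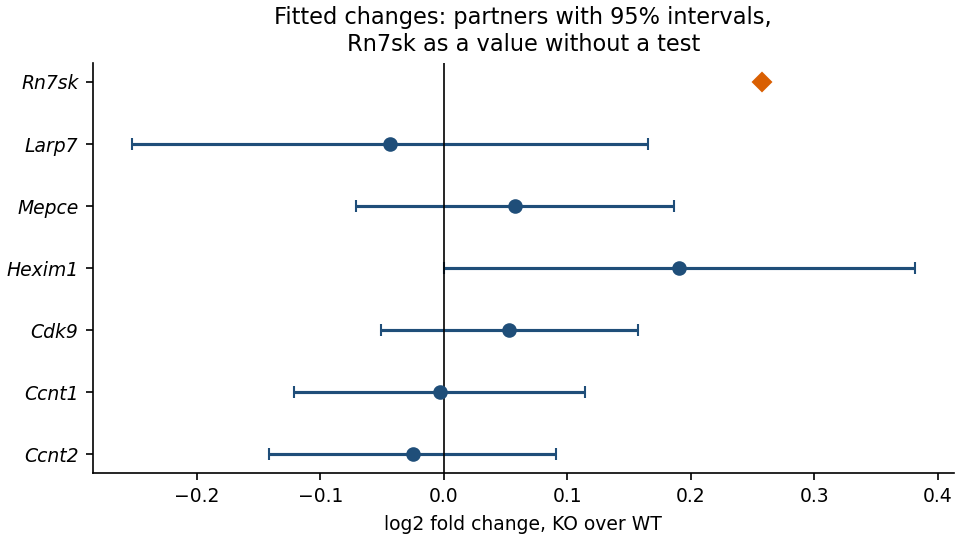
Fitted log2 fold change, KO over WT, of each partner with its 95% interval (blue) and of Rn7sk as a value without a test (orange, at 0.26). The intervals of 5 partners span 0, and that of Hexim1 starts at 0.00011.

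Per kilobase of annotated exon (kb), Rn7sk was the most abundant of all genes tested, at 44523 CPM per kb over the 6 libraries, and its partners lay between 4.81 and 11.98 CPM per kb. The level of Rn7sk is divided by all 331 bases and could be understated, since the share of its reads lost over the stretch identical in Gm24447 is unknown. Cdk9 was highest among the partners (11.98, range 11.5 to 12.3 over libraries), followed by Ccnt2 (11.0, range 10.3 to 11.6) and Hexim1 (10.4, range 9.36 to 12.8). The ranges of these 3 overlapped, though within a library Cdk9 stood above Ccnt2 in 6 of 6 libraries. Mepce (8.68, range 8.13 to 9.10) and Ccnt1 (7.79, range 7.39 to 8.21) had overlapping ranges, with Mepce above Ccnt1 in 6 of 6 libraries, and both lay below the other 3. Larp7 was lowest, at 4.81 CPM per kb with a range from 4.31 to 5.30, below all other members in every library. These are levels of RNA and not of protein.

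The level of Rn7sk per partner was then taken within each library as a ratio of CPM per kb, which cancels the scaling between libraries. Per Larp7 it came to 8129, 8663 and 8193 in WT and to 10095, 10976 and 9668 in KO, so its mean was 1.23 times as high in KO. The KO over WT ratio was 1.22 for Ccnt2, 1.20 for Ccnt1, 1.15 for Cdk9 and 1.15 for Mepce. For these 5 partners every KO library lay above every WT library. Per Hexim1 the ratio was 4601, 3960 and 3957 in WT and 4535, 3903 and 4760 in KO, so that the groups overlapped and the means differed by 1.05 times. KO library 2, the library with the most Rn7sk, had the lowest ratio to Hexim1 of all 6. All these ratios contain the rise for which Rn7sk was chosen.

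**Figure D4:**
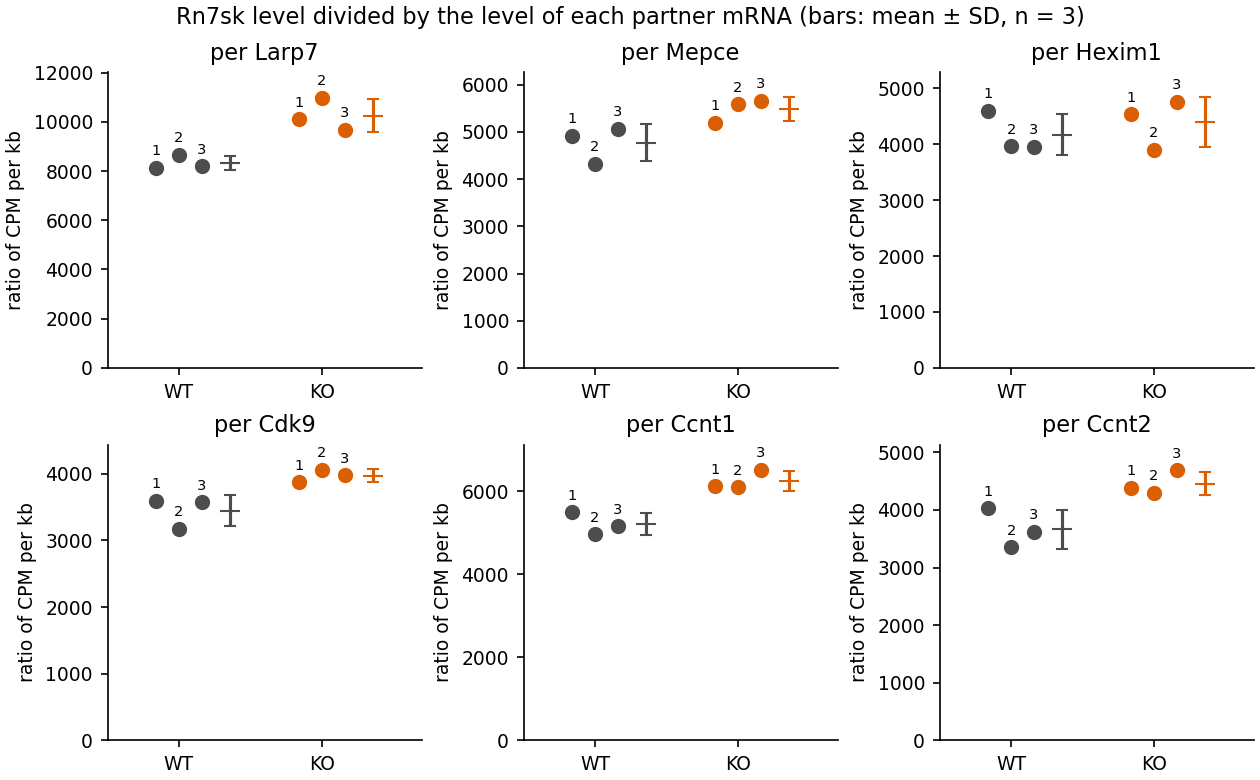
Level of Rn7sk divided by that of each partner, both in CPM per kb, in each library (points, numbered by replicate) with mean ± SD of 3 libraries. The KO points lie above all WT points for Larp7, Mepce, Cdk9, Ccnt1 and Ccnt2, while for Hexim1 they run from 3903 to 4760, overlapping the WT range of 3957 to 4601.

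Across the 6 libraries, 5 of the 7 members had their highest level in KO library 2, namely Rn7sk, Hexim1, Cdk9, Ccnt1 and Ccnt2. That library was the highest of the 6 for 21.8% of all genes tested, the largest share of any library. WT library 2 was the lowest for Rn7sk and Larp7.

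Log2 CPM of Cdk9 had a Pearson correlation of 0.83 with that of Rn7sk over the 6 libraries, Hexim1 of 0.68, Mepce 0.48, Ccnt1 0.24, Larp7 0.17 and Ccnt2 -0.18. All these values include the difference between the groups. Of 10645 genes with a mean of at least 10 CPM, 4.22% correlated with Rn7sk at least as closely as Cdk9 and 12.4% at least as closely as Hexim1. The closest were Pja1 (0.987), Sf3b2 (0.986), Rnf40 (0.983), Fgfr1 (0.981) and Mtmr11 (0.980), all protein-coding, which encode among others a ubiquitin ligase, a splicing factor subunit and a growth factor receptor. Their log2 fold changes ran from 0.10 for Pja1 to 0.25 for Fgfr1. With 6 libraries in 2 groups, these correlations only describe the order of the libraries.

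The wider machinery around 7SK was read from lists of known parts. Of 17 other 7SK-binding proteins and factors that release P-TEFb, 12 were higher and 5 lower in KO, 0 passed over all genes and 0 came under 0.05 without adjustment. The median log2 fold change was 0.03, against 0.00013 over all genes. The most abundant were the hnRNP proteins that bind 7SK when P-TEFb has left it, Hnrnpa2b1 (log2 fold change 0.03, SE 0.060) and Hnrnpa1 (0.02, SE 0.047). Hexim2, the paralog of Hexim1, had 7.84 ± 0.461 CPM in WT and 7.90 ± 0.650 CPM in KO (n = 3, SD; log2 fold change 0.01, edgeR adjusted p = 0.986); it was named after its values were seen.

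The super elongation complex carries active P-TEFb to polymerase. Of its 9 tested genes 7 were higher and 2 lower in KO, 0 passed over all genes and 2, both higher, had an unadjusted p-value under 0.05, which 4.54% of all genes tested reached in that direction. For 3 of the 9, Aff1, Mllt1 and Eaf1, all KO libraries lay above all WT libraries, against 7.46% of all genes tested. Its most abundant members were the scaffold Aff4 (log2 fold change -0.01, SE 0.044), Aff3 (0.02, SE 0.057) and Mllt3 (0.01, SE 0.064). The 2 genes under 0.05, named like Eaf1 after their values were seen, were the scaffold Aff1 and the chromatin reader Mllt1. Aff1 had 47.3, 46.1 and 44.8 CPM in WT and 48.6, 60.0 and 52.6 CPM in KO libraries 1 to 3 (log2 fold change 0.22, SE 0.072, edgeR adjusted p = 0.576). Mllt1 had 49.3, 50.8 and 51.0 CPM in WT and 51.5, 60.3 and 56.4 CPM in KO (log2 fold change 0.15, SE 0.062, edgeR adjusted p = 0.606). For both, KO library 2 was the highest, as it was for Hexim1.

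P-TEFb acts on the pausing factors NELF and DSIF and on polymerase II. All 8 tested genes of this list had a positive log2 fold change, from 0.0055 to 0.10 with a median of 0.07, but 0 passed over all genes and 0 came under 0.05 without adjustment. The most abundant were the elongation factor Supt6 (0.08, SE 0.040), the largest polymerase II subunit Polr2a (0.05, SE 0.045) and the DSIF subunit Supt5 (0.09, SE 0.050). For 4 of the 8, Supt6, Nelfa, Nelfb and Supt4a, all KO libraries lay above all WT libraries, as did 7.46% of all genes tested. The shift was small in each, from 0.06 for the DSIF subunit Supt4a to 0.10 for the NELF subunit Nelfa. Of the 8 other transcription kinase genes 3 were higher and 5 lower, with 0 past either threshold. The most abundant were Cdk13 (-0.03, SE 0.057), Cdk12 (-0.04, SE 0.044) and the Mediator kinase Cdk8 (-0.02, SE 0.051).

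The factors that transcribe the 7SK gene were compared because it has a promoter of the snRNA type, served by the SNAP complex and a TFIIIB with BRF2. Of 11 genes 4 were higher and 7 lower in KO, with a median log2 fold change of -0.02 and 0 past either threshold. The most abundant were the TFIIIB subunit Bdp1 (-0.03, SE 0.068), the octamer-binding factor Pou2f1 (-0.09, SE 0.047) and the SNAP complex subunit Snapc4 (0.10, SE 0.070). Pou2f1 alone had groups that did not overlap, with KO (69.3 to 73.2 CPM) below WT (74.7 to 76.4 CPM). That is 1 gene of 11, while 6.97% of all genes tested were lower without overlap.

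Other short RNAs had far lower CPM than Rn7sk in these libraries. Several of them are shorter than the 200 bp above which RNA was selected, so their counts cannot be read as their levels in brain. Of 11 other polymerase III RNAs 6 could be tested, 3 higher and 3 lower in KO, with 0 past the threshold over all genes and 2 with an unadjusted p-value under 0.05, 1 in each direction, against 4.54% higher and 3.38% lower over all genes. The signal recognition particle RNA Rn7s2, which at 300 bases is close to 7SK in length, had 8.11, 5.52 and 4.89 CPM in WT and 9.50, 7.72 and 7.86 CPM in KO libraries 1 to 3. Its groups overlapped (log2 fold change 0.43, SE 0.17, edgeR adjusted p = 0.600). Its near-identical copy Rn7s1 could share its reads, so its value is uncertain. The RNA lower in KO was Rn7s6, named after its values were seen, with 0.401 ± 0.125 CPM in WT and 0.161 ± 0.0669 CPM in KO (n = 3, SD; log2 fold change -1.28, edgeR adjusted p = 0.576). Its value rests on only 3 to 17 counts a library. The next in abundance were the Y RNAs Rny1 (log2 fold change -0.61, SE 0.31) and Rny3 (-0.24, SE 0.33). Both are below the size selected, at 112 and 102 bases.

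Rmrp, Rpph1 and Rn5s had 0 counts in every library, which allows up to 3 counts, or 0.0824 to 0.0957 CPM, for counting error alone. Rn5s, at 119 bases, is also below the size selected. The annotation holds 2 overlapping entries for Rmrp, so reads that fall in both are counted for neither. Apart from Rn7sk, no polymerase III RNA on the list had a mean of 10 CPM.

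Of 22 annotated short RNAs made by polymerase II, 9 could be tested, 5 higher and 4 lower in KO, with 0 past the threshold over all genes and 1, Scarna6, higher with an unadjusted p-value under 0.05, against 4.54% over all genes. The most abundant were the Cajal body RNAs Scarna2 and Scarna13, of 414 and 275 bases, and the minor spliceosome RNA Rnu12. At 151 bases Rnu12 is below the size selected. Scarna2 had 20.4 ± 1.83 CPM in WT and 19.2 ± 0.398 CPM in KO (n = 3, SD; log2 fold change -0.09, SE 0.075). Scarna13 had 13.6 ± 1.26 and 12.6 ± 1.25 CPM (-0.11, SE 0.099). Rnu12 had 20.8 ± 12.8 and 15.6 ± 2.94 CPM (-0.43, SE 0.31), with WT library 1 at 35.5 CPM. All 3 had fitted values below 0, against 0.26 for Rn7sk. Scarna6, of 265 bases, had 8.05, 6.86 and 7.87 CPM in WT and 9.61, 8.88 and 8.99 CPM in KO libraries 1 to 3 (log2 fold change 0.27, SE 0.099, edgeR adjusted p = 0.581). The short RNAs around the length of 7SK thus lay on both sides of no change.

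Genes that are induced within minutes, a class well known for paused polymerase, varied widely between KO libraries. Of 9 tested genes 7 were higher and 2 lower in KO, with 0 past the threshold over all genes and 1, Fosb, higher with an unadjusted p-value under 0.05, against 4.54% over all genes. Fosb, an AP-1 subunit named after its values were seen, had 5.28, 6.19 and 4.71 CPM in WT and 9.09, 13.99 and 5.45 CPM in KO libraries 1 to 3, with overlapping groups (log2 fold change 0.82, SE 0.26, edgeR adjusted p = 0.576). Egr1 had 126, 120 and 115 CPM in WT and 177, 156 and 96.1 CPM in KO libraries 1 to 3. Arc had 77.7, 71.8 and 67.0 CPM in WT and 96.9, 105 and 36.2 CPM in KO, and Nr4a1 50.1, 51.6 and 43.5 CPM in WT and 64.5, 51.4 and 22.7 CPM in KO. For these 3 genes KO library 3 was the lowest of all 6, while its Rn7sk, at 15940.5 CPM, lay between those of the other KO libraries.

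**Figure D5:**
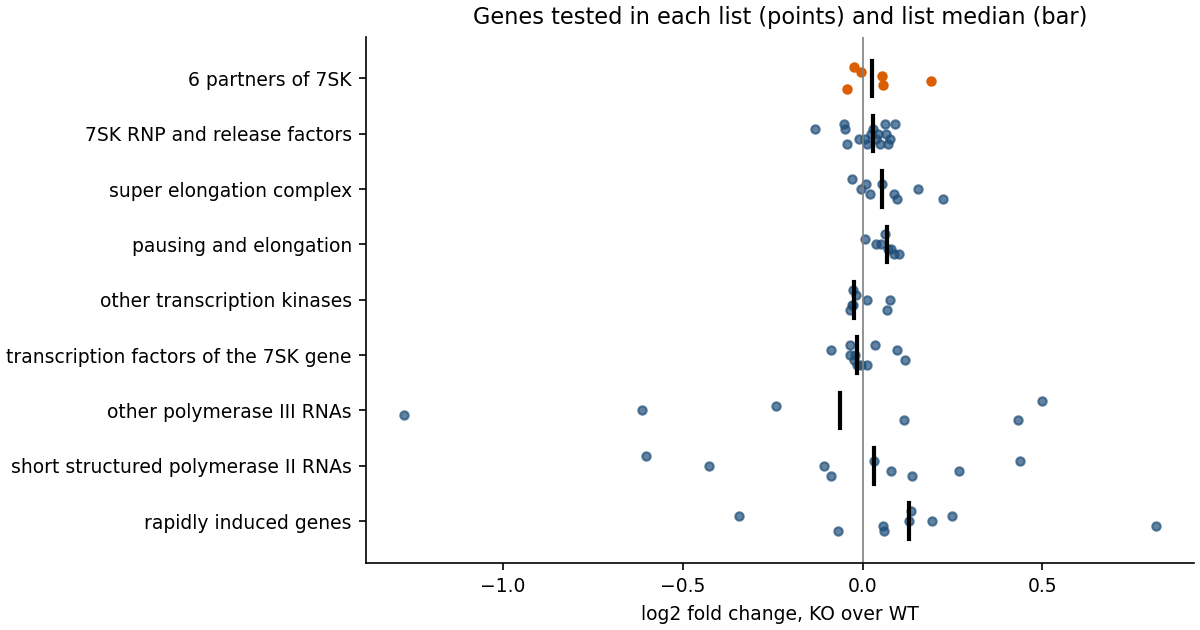
Log2 fold change, KO over WT, of every tested gene (points) in the 6 partners of 7SK and in 8 lists of related genes, with the median of each list as a bar. Apart from the rapidly induced genes, the protein-coding genes lie between -0.13 and 0.22, while the short RNAs and the rapidly induced genes spread widely on both sides.

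Markers of other cell types were set beside these results, and their part in them was not tested. Summed choroid plexus markers (Ttr, Kl, Folr1) ran from 292 to 344 CPM in WT and from 350 to 420 CPM in KO. Microglial markers ran from 123 to 151 and from 115 to 139 CPM, astrocyte markers from 376 to 404 and from 383 to 484 CPM, endothelial markers from 121 to 134 and from 121 to 140 CPM, and blood markers from 96.8 to 132 and from 86.6 to 218 CPM. Of these 5 sums, that of the choroid plexus alone did not overlap between the groups. Ttr made up most of that sum, with a mean of 293 CPM in WT and 359 CPM in KO. The groups overlapped for Kl and for Folr1. No single marker passed the threshold (edgeR's test, adjusted over all genes). Without adjustment, a level under 0.05 was reached by 2 of 3 choroid plexus markers and 1 of 3 blood markers, all higher, by 1 of 3 microglial markers, P2ry12, lower, and by 3 of 3 astrocyte markers, of which Aqp4 was lower and Gfap and Aldh1l1 were higher. No neuronal or endothelial marker reached it, and the share over all genes was 4.54% higher and 3.38% lower. P2ry12, Aqp4 and Aldh1l1, named after their values were seen, had groups that did not overlap, as did Ttr and Snap25. Over all genes tested the groups did not overlap for 7.46% higher and 6.97% lower in KO. The fitted log2 fold changes were -0.34 for P2ry12, -0.17 for Aqp4, 0.18 for Aldh1l1, 0.29 for Ttr and -0.09 for Snap25.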

How the data were processed

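The authors deposited 1 table of raw read counts per library, whole-number counts per gene without normalization, in the layout of STAR gene counting. The submitters' processing notes list cutadapt 1.9.1 and STAR 2.7.0f, and the genome build and annotation are not given in the sources used here. All 55450 gene IDs are those of GENCODE M21 (GRCm38), which gave names, positions, exon lengths and sequences. The deposited column for the transcribed strand was used, which held at least 94.6% of stranded gene counts in each library. Reads in several genes or at several places are left out of these counts.

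Genes were filtered with filterByExpr, scaled with TMM factors and tested with edgeR 4.0.16 (R 4.3.3), all 6 libraries and genotype alone, Benjamini-Hochberg over 21237 genes. Intervals are 95% and use the standard error, the log2 fold change divided by the root of F. Replicates differed beyond sampling noise (chi-square per degree of freedom from 4.08 to 8.69). The method was tested on simulated counts. The members and lists were chosen with earlier results of these data known. Named genes were the members, Trmt1l, the 3 most abundant of each list (1 of them and 1 marker list are not reported here), any list gene past the threshold and the 5 most like Rn7sk. 7SK-like copies were found with blastn. Alternatives were the unstranded column, other scalings and filters, DESeq2 1.42.0, limma-voom 3.58.1, a replicate block and leaving out each library.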

Additional observations from a re-analysis of the deposited data

How the results depend on the processing

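The log2 fold change of Rn7sk stayed positive in all 15 alternatives, from 0.20 without WT library 2 to 0.30 without WT library 1. That of Hexim1 ran from 0.08 to 0.25, with adjusted p-values from 0.223 (no filter) to 0.861 (without WT library 2), and no adjusted p passed. The number of genes that differed was 298 without a filter on low counts, 26 in the DESeq2 Wald test and 4 with the replicate block, and from 2 to 5 with 1 library left out (5 without KO library 3). Of the 7 members 1, Rn7sk, was called without a filter and 1, again Rn7sk, in the DESeq2 Wald test, and 0 in every other alternative, leaving out a library included. Rn7sk was chosen on this same contrast, so its calls are no independent test. DESeq2 gave no adjusted p-value for Larp7, Mepce and Hexim1. The replicate block changed no other call, and same-numbered libraries correlated in their deviations at 0.040, -0.031 and -0.058, none of them above 0.1, and the numbers were not taken to pair the libraries. Changes near 0 turned sign: Ccnt1 to 0.0020 without a filter, 0.0019 without WT library 1, 0.018 without WT library 3 and 0.033 without KO library 3, Ccnt2 to 0.016 without KO library 3, and Larp7 to 0.021 without WT library 1. The lowest values were -0.12 for Larp7 (without WT library 2), -0.044 for Ccnt1 and -0.075 for Ccnt2 (both without KO library 2). The cause was not tested. The KO over WT ratio of Rn7sk per partner with 1 library left out ran from 1.19 to 1.27 for Larp7, 1.10 to 1.19 for Mepce, 1.01 to 1.11 for Hexim1, 1.11 to 1.18 for Cdk9, 1.17 to 1.23 for Ccnt1 and 1.17 to 1.28 for Ccnt2. Scaling moved the median of all genes by at most -0.011 (protein-coding genes alone). Larp7, with 320 to 456 counts a library, was the least precisely measured partner.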
